A study of Mus musculus with 16 samples.

Results

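The classical cadherins and the non-clustered protocadherins were described here in the striatum of R6/1 and wild-type mice, with their relatives of the Fat, Dachsous and Celsr groups. The set was a list of 37 mouse genes given by name: 4 classical cadherins of type I (Cdh1, Cdh2, Cdh3, Cdh4), 13 of type II (Cdh5 to Cdh12, Cdh18, Cdh19, Cdh20, Cdh22, Cdh24), the GPI-anchored Cdh13, the tip link genes Cdh23 and Pcdh15, the protocadherins Pcdh1, Pcdh7 and Pcdh9 of the delta-1 group, Pcdh8, Pcdh10, Pcdh17, Pcdh18 and Pcdh19 of the delta-2 group with Pcdh20, the genes Fat1 to Fat4 with Dchs1, and Celsr1, Celsr2 and Celsr3. Of these 37 genes, 34 reached 10 counts or more in 4 or more of the 16 libraries and were tested, among 19363 genes tested of 55450 in the table. R6/1 is a transgenic line on a C57Bl/6 background (substrain C57BL/6J in the study's methods) that carries exon 1 of the human HTT gene with an expanded CAG repeat under the human promoter, and serves as a model of Huntington disease. The animals were 16 males of 14 weeks, namely 8 R6/1 mice and 8 wild-type littermates, and each genotype held 4 “good” and 4 “poor” performers. The study drew its mice from several cohorts and litters, and reported that some mice of the same litter tended to rank alike in behaviour. The litter and cohort of each library were not given in the sources used here and were not part of any fit. None of the groups had received a treatment. “Good” and “poor” performers of each genotype were chosen in the study from Z-scores of rotarod, clasping and body weight measured before sampling. Each library was the striatal mRNA of 1 mouse. The line was passed on through males and the mice were housed alone, so females, other ages and group-housed mice were not measured. The human transgene has no row in a table of mouse genes, so the genotype labels were not checked by it.

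Cadherins are calcium-dependent adhesion proteins whose extracellular repeats bind like or related cadherins on a neighbouring cell. Classical cadherins reach the actin cytoskeleton through catenins, while delta protocadherins lack the catenin site and, in the delta-2 group, bind the WAVE regulator of actin. In the brain the type II cadherins and delta protocadherins are expressed in partly exclusive patterns that mark nuclei, cortical layers and circuits, and several take part in axon guidance and in the assembly of synapses. Fat4 and Dchs1 are a receptor and ligand pair, and the Celsr proteins are seven-pass cadherins of planar cell polarity and axon tract formation.

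The libraries held 16155356 to 24897354 counts. They carried a running number in the headers of the count table, and those numbered 1 to 8 held at most 20250680 counts while those numbered 9 to 16 held at least 21529188. All 4 R6/1 “good” mice had running numbers of 1 to 8, whereas 3 of the 4 R6/1 “poor” mice had numbers of 9 to 16. Of the wild-type mice, 2 “good” and 3 “poor” performers had numbers of 9 to 16. The running number and the performance class of the R6/1 mice could therefore be told apart only through R6/1 “poor” mouse 2. What the running number stood for was not given in the sources used here. Levels are given as CPM, the counts of a gene divided by the total of its library in units of 1000000 counts, after the totals were scaled by the TMM method. The 10 genes listed as markers of medium spiny neurons, the main neurons of the striatum, were detected in every group, and their summed level ran from 5617 to 8757 CPM in the wild-type mice, from 2053 to 3322 CPM in R6/1 “good” mice and from 1313 to 1904 CPM in R6/1 “poor” mice. The summed levels of 4 other lists were also lower in all 8 R6/1 mice than in all 8 wild-type mice. They ran from 145 to 197 CPM against 296 to 389.5 CPM for 6 markers of striatal interneurons, from 3246 to 3961 against 5220 to 6170 CPM for 8 of astrocytes, from 346 to 470.3 against 495 to 616 CPM for 6 of microglia and from 267 to 319 against 359.9 to 433 CPM for 7 of endothelial cells. Over all R6/1 against all wild-type mice edgeR called 10 of the 10 medium spiny neuron, 5 of the 6 interneuron, 5 of the 8 astrocyte, 6 of the 6 microglial and 6 of the 7 endothelial markers lower and none higher, and the part of these cells in the values of the members was not tested. Markers of neurons outside the striatum differed between single mice. The summed level of 10 hypothalamic markers was 39.0 CPM in R6/1 “poor” mouse 1 and 24.8 CPM in R6/1 “poor” mouse 3, against 4.21 to 15.1 CPM in the other 14 mice, and 7 septal markers summed to 237 and 178 CPM in those mice against 44.4 to 119 CPM. Cortical markers summed to 881 CPM in R6/1 “poor” mouse 4 and to 823 CPM in wild-type “good” mouse 4, against 50.2 to 567 CPM in the others.

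**Figure D1:**
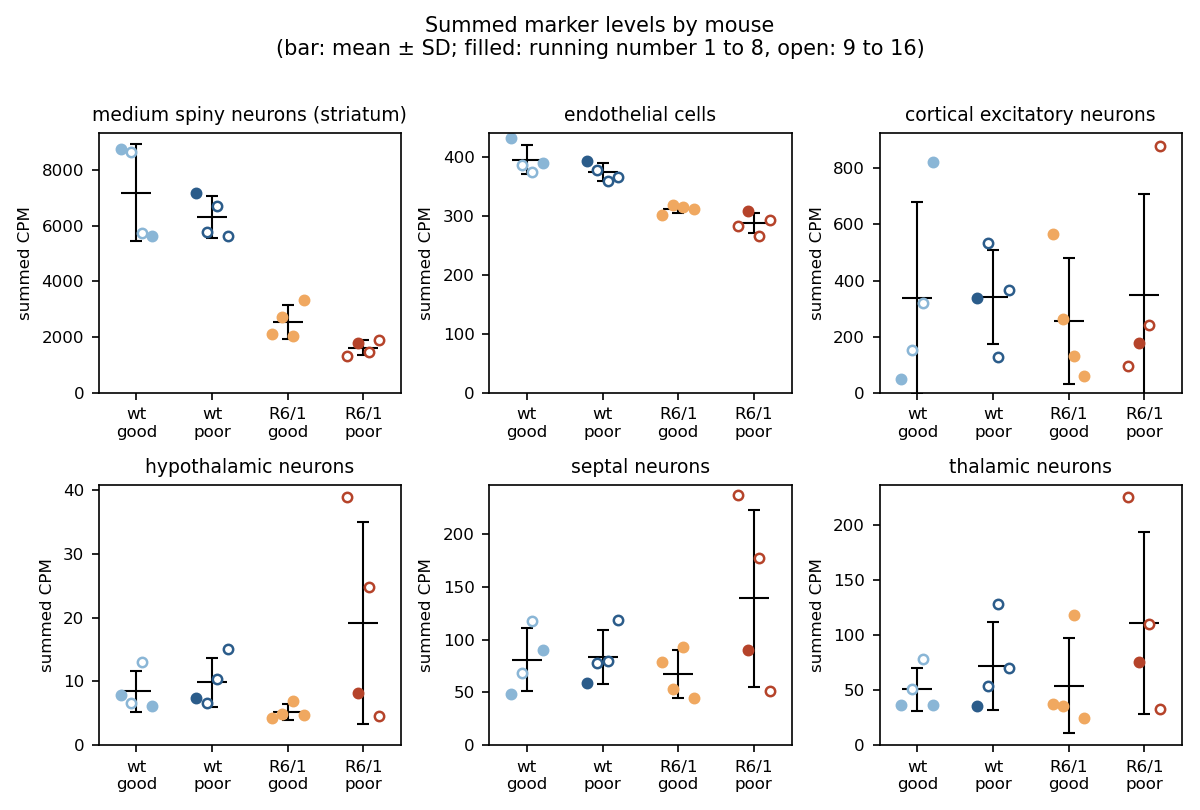
Summed level (CPM) of 6 lists of marker genes in each of the 16 mice, by group, with the mean and SD of each group as a bar. Filled points are libraries with a running number of 1 to 8 and open points those of 9 to 16. The medium spiny neuron and endothelial sums of all R6/1 mice lay under those of all wild-type mice, and the hypothalamic and septal sums were highest in R6/1 “poor” mice 1 and 3.

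In wild-type striatum the members covered a wide range of levels. Per kilobase of merged exons, a scale that lets genes of different length be compared, the highest mean levels over the 8 wild-type mice were those of Pcdh1 at 15.95 CPM per kb, Pcdh9 at 15.1, Cdh2 at 12.1, Celsr2 at 11.8, Pcdh10 at 11.8 and Cdh13 at 11.6 CPM per kb. The ranges over mice of these genes overlapped, so their order was not resolved. Most of the other members lay between 9.64 CPM per kb for Celsr3 and 0.469 CPM per kb for Fat4, and Cdh23 stood lower at 0.0868 CPM per kb. Cdh1 (E-cadherin) and Cdh3 (P-cadherin), the epithelial type I cadherins, and Fat2, which is known from cerebellar granule cells, were not tested. Cdh1 had 35 counts in all 16 libraries together with at most 7 in a library, Cdh3 had 51 with at most 12, and Fat2 had 11 with at most 3. The tested members with the fewest counts were Cdh23, with 11 to 62 counts per library, Cdh12 with 53 to 211, Cdh24 with 56 to 205 and Celsr1 with 98 to 266. Each of these 4 had at least 10 counts in all 16 libraries, so none of them passed the filter through 1 group alone.

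**Figure D2:**
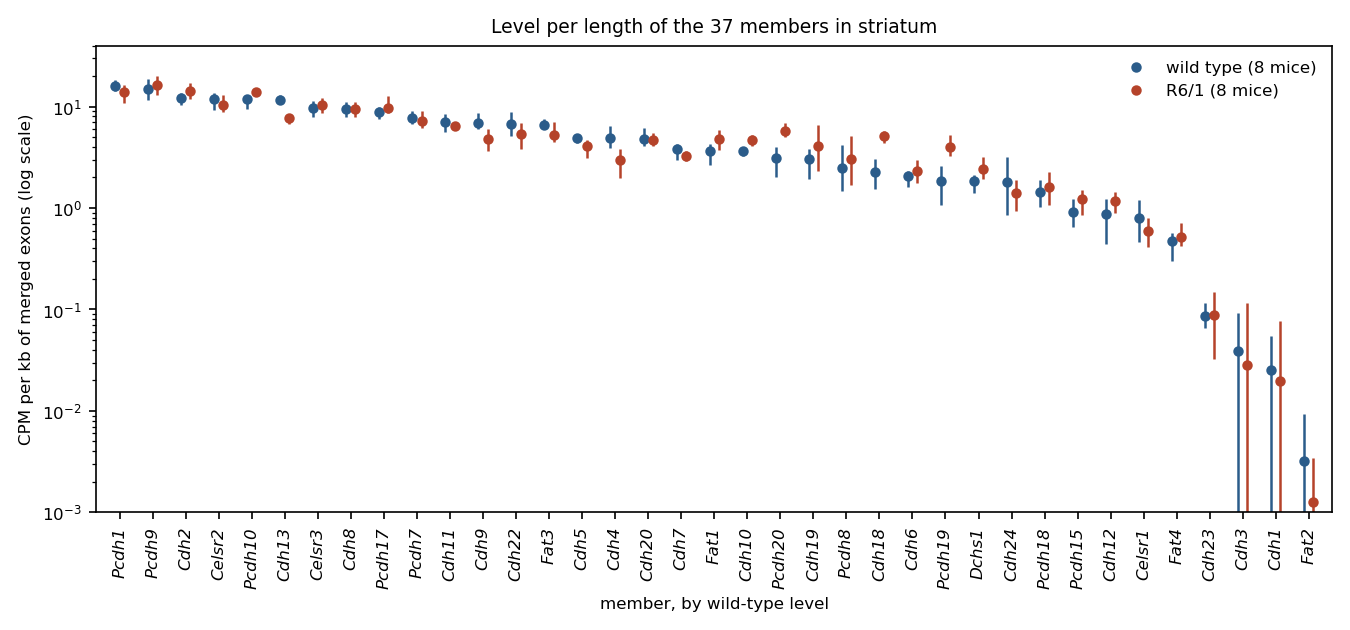
Mean level of the 37 members in CPM per kb of merged exons on a log scale, in 8 wild-type (blue) and 8 R6/1 (red) mice, with lines from the lowest to the highest mouse, ordered by the wild-type mean. Lines that reach the lower edge of the plot go down to a mouse with 0 counts. The range runs from 15.95 CPM per kb for Pcdh1 to 0.00319 CPM per kb for Fat2 in wild-type mice.

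The first question was which members differed between R6/1 and wild-type striatum. All 8 R6/1 mice were compared with all 8 wild-type mice by the quasi-likelihood test of edgeR, and a gene was called where its p-value, adjusted by the Benjamini-Hochberg method over all 19363 genes, was under 0.05. The members moved in both directions. Cdh18 rose most, to 2.23 times the wild-type level, followed by Pcdh19 at 2.13 times and Pcdh20 at 1.84 times. Cdh4 fell most, to 0.614 times the wild-type level, followed by Cdh13 at 0.671 times and Cdh9 at 0.686 times. In all, 9 of the 34 tested members were called higher (26.5%) and 8 lower (23.5%), against 17.2% of all genes tested called higher and 17.0% called lower. For 7 members (20.6%) the 8 R6/1 values did not overlap with the 8 wild-type values, against 9.07% of all genes tested. These 7 were Cdh18, Pcdh19, Pcdh20, Cdh10 and Pcdh10, which were higher in every R6/1 mouse, and Cdh13 and Cdh4, which were lower. The median log2 fold change of the 34 members was 0.11, beside 0.02 over all genes tested. By group, 1 of 2 tested type I cadherins rose and 1 fell, 2 of 13 type II cadherins rose and 4 fell, 3 of 6 members of the delta-2 group with Pcdh20 rose and none fell, 2 of the 4 tested Fat and Dachsous genes rose and 1 fell, and none of the 3 Celsr genes was called. All 17 called members had the same sign within the libraries numbered 1 to 8 and within those numbered 9 to 16. Of these, 8 passed the threshold in both. Over all genes tested 2088 were called higher and 2280 lower within libraries 1 to 8, and 1423 and 1978 within libraries 9 to 16. The libraries numbered 1 to 8 held 4 “good” and 1 “poor” R6/1 mice, and those numbered 9 to 16 held 3 “poor” and 0 “good” R6/1 mice. The values within libraries 9 to 16 given below are therefore those of R6/1 “poor” mice against wild-type mice. As a covariate, here and below, the running number was entered as 2 sets of libraries, 1 to 8 and 9 to 16. With it 16 of the 17 were called, all but Cdh22 (edgeR adjusted p = 0.0624). That fit also called Cdh19, Pcdh17, Celsr1 and Cdh12 (edgeR adjusted p = 0.00299, 0.0241, 0.0315 and 0.0396), which gave 20 members. Over all genes tested it called 3870 higher and 3669 lower, against 3325 and 3295 without the covariate. Without R6/1 “poor” mice 1 and 3, 13 were called, all but Cdh2, Cdh22, Pcdh15 and Pcdh1. Over all genes tested 2823 were called higher and 2834 lower in that fit, against 3325 and 3295 with all mice. In this bulk tissue fewer cells of a type and less RNA per cell cannot be told apart.

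**Figure D3:**
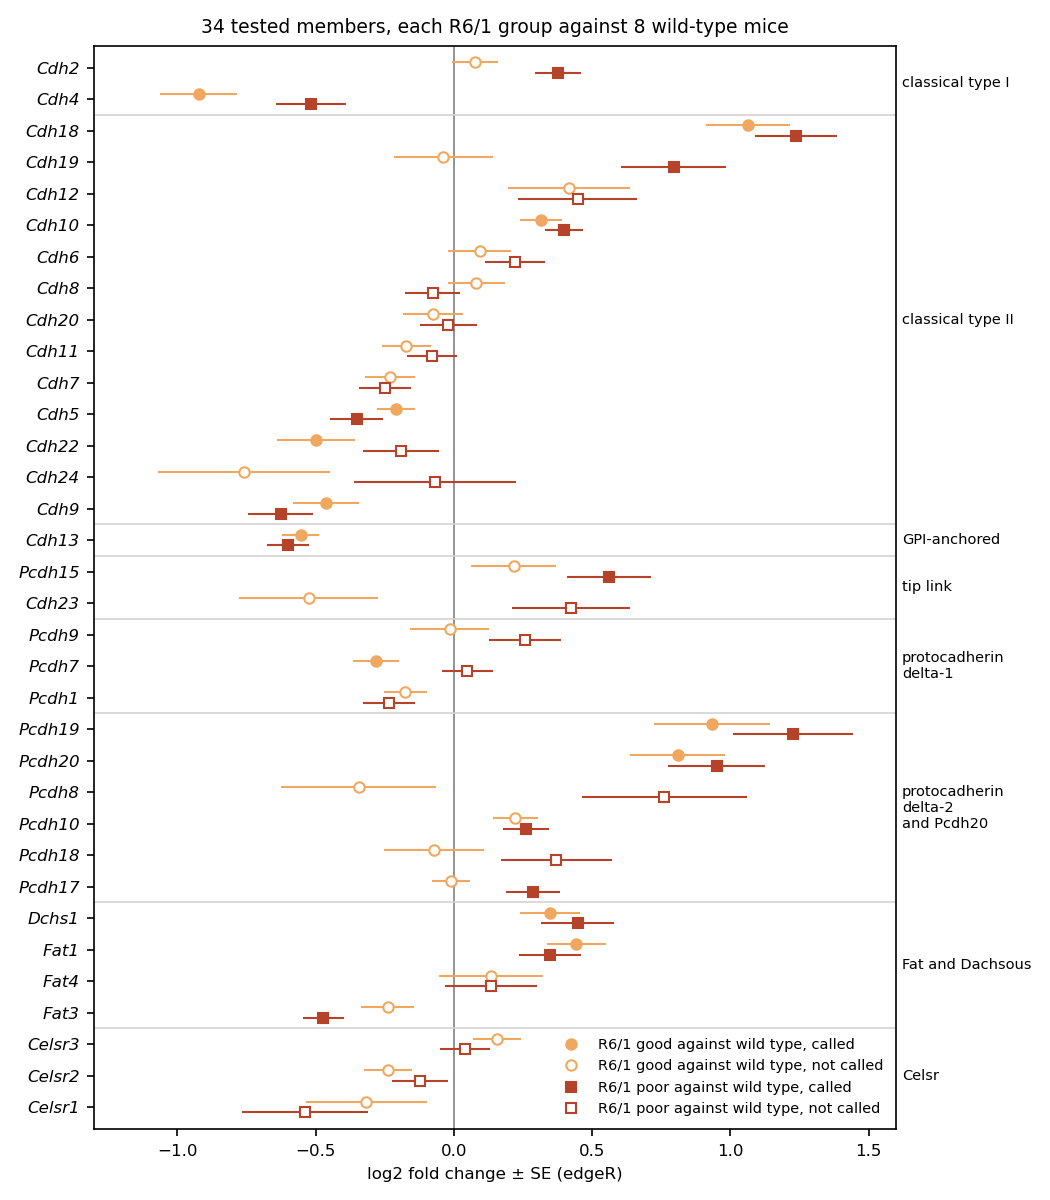
Log2 fold change with its standard error for the 34 tested members in R6/1 “good” (orange circles) and R6/1 “poor” (red squares) mice, each against the same 8 wild-type mice, grouped by kind of cadherin. Filled symbols were called at an adjusted p under 0.05. Cdh18, Pcdh19 and Pcdh20 lie to the right for both groups and Cdh4, Cdh9 and Cdh13 to the left.

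Among the type I cadherins, Cdh4 (R-cadherin) fell. In the order of mice 1 to 4, Cdh4 stood at 37.5, 28.2, 46.5 and 30.8 CPM in wild-type “good” mice, 33.5, 33.5, 33.4 and 39.6 CPM in wild-type “poor” mice, 23.7, 18.1, 14.3 and 18.4 CPM in R6/1 “good” mice, and 23.8, 27.9, 27.6 and 19.6 CPM in R6/1 “poor” mice. Every R6/1 mouse was below every wild-type mouse, and the 3 lowest values were those of R6/1 “good” mice. edgeR gave Cdh4 a log2 fold change of -0.70 (SE 0.13, adjusted p = 0.000429), with -0.74 within libraries 1 to 8 and -0.61 within libraries 9 to 16. Cdh2 (N-cadherin), which joins the membranes on both sides of many excitatory synapses, rose. Its levels were 84.1, 89.4, 109.5 and 105 CPM in wild-type “good” mice, 84.6, 107, 102 and 102 CPM in wild-type “poor” mice, 114, 95.7, 108 and 95.5 CPM in R6/1 “good” mice, and 139, 119, 134 and 118 CPM in R6/1 “poor” mice. The genotypes overlapped, and the R6/1 “poor” mice were the 4 highest of all 16. For Cdh2 the log2 fold change was 0.24 (SE 0.082, adjusted p = 0.0336), with 0.22 within libraries 1 to 8 and 0.35 within libraries 9 to 16. The call for Cdh2 was lost on leaving out any 1 of “good” mice 1 and 2 or “poor” mice 1, 3 and 4 of the wild type, or R6/1 “poor” mice 1, 2 and 3, with an adjusted p of up to 0.0842.

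Of the type II cadherins, Cdh6, Cdh9, Cdh10, Cdh12 and Cdh18 lie next to each other on chromosome 15 of GRCm38, with no other protein-coding gene between them, and their values went in different directions. Cdh9 spans 16728756 to 16857094, Cdh10 spans 18818947 to 19014236, Cdh12 spans 20449265 to 21589533 and Cdh18 spans 22549022 to 23474418, all on the plus strand, and Cdh6 (13028701 to 13173675) is on the minus strand. The promoter windows of the 4 plus-strand neighbours, from 250 bases before to 50 bases after a RefSeq start (GRCm38.p6), are shown because genes side by side differed in direction, with any of the searched motifs in capitals. The windows of Cdh10, Cdh12 and Cdh18 lie inside the spans given above, each at a start downstream of the first one annotated in GENCODE M21.
Cdh9, chr15:16728665-16728964, plus strand: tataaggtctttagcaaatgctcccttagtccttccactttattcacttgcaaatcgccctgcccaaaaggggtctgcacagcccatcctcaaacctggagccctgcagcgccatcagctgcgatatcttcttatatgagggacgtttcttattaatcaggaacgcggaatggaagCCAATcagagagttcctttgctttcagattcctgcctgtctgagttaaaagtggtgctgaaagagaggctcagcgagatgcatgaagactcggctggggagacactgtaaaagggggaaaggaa
Cdh10, chr15:18820079-18820378, plus strand: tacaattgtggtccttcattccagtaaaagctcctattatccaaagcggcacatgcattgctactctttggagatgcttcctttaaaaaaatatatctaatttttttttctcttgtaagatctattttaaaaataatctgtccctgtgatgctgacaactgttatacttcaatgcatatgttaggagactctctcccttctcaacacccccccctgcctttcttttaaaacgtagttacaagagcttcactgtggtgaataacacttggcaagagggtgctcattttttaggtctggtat
Cdh12, chr15:21111202-21111501, plus strand: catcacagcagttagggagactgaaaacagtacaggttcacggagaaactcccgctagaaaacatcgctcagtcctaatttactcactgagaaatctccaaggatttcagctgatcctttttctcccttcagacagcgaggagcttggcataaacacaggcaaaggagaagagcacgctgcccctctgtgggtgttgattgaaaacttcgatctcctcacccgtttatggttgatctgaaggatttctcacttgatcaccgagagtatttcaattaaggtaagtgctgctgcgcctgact
Cdh18, chr15:23036213-23036512, plus strand: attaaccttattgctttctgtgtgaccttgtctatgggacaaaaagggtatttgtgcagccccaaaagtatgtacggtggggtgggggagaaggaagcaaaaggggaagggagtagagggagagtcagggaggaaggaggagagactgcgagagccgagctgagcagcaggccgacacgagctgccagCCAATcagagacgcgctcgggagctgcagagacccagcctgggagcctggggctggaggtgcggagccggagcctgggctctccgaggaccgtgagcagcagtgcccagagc
The motifs searched on both strands were the CCAAT box (CCAAT), the GC box (GGGCGG), the cAMP response element (TGACGTCA), the E-box (CACGTG) and the TATA box (TATAAA), and they do not contain one another. A CCAAT box stood in the windows of Cdh9 and Cdh18, which went in opposite directions, and none of the 5 motifs in those of Cdh10 and Cdh12. Of the 37 members, 26 matched a RefSeq promoter, with 29 windows. A CCAAT box was in 51.7% of the 29 windows and in 37.4% of 32851 promoters of the same length, a GC box in 31.0% against 35.7%, and a TATA box in 6.9% against 13.6%. No member window held the cAMP response element or the E-box, beside 1.79% and 7.15% of all promoters. The median GC content of the member windows was 60.3% against 52.7%. These matches describe the letters in the windows and were not tested.

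Cdh18 had the lowest adjusted p of the members that rose. Its levels were 7.04, 7.74, 13.6 and 9.304 CPM in wild-type “good” mice, 10.8, 10.9, 10.1 and 13.9 CPM in wild-type “poor” mice, 24.5, 20.1, 21.1 and 21.7 CPM in R6/1 “good” mice, and 26.3, 23.8, 25.1 and 23.4 CPM in R6/1 “poor” mice. The lowest R6/1 mouse, at 20.1 CPM, stood well above the highest wild-type mouse at 13.9 CPM. edgeR gave Cdh18 a log2 fold change of 1.15 (SE 0.12, adjusted p = 1.43e-06), with 1.29 within libraries 1 to 8 and 1.15 within libraries 9 to 16. Cdh10, its neighbour but one, rose by less and with a small spread. Cdh10 stood at 33.97, 34.7, 38.9 and 40.2 CPM in wild-type “good” mice, 35.6, 40.5, 33.02 and 35.6 CPM in wild-type “poor” mice, 52.2, 41.1, 43.8 and 44.8 CPM in R6/1 “good” mice, and 47.3, 45.1, 47.1 and 53.2 CPM in R6/1 “poor” mice. All 8 R6/1 values were above all 8 wild-type values, the closest being R6/1 “good” mouse 2 and wild-type “poor” mouse 2. For Cdh10 the log2 fold change was 0.36 (SE 0.061, adjusted p = 0.000188), with 0.30 within libraries 1 to 8 and 0.43 within libraries 9 to 16. Cdh9, which is known from the synapses of hippocampal mossy fibres, fell. Its levels were 28.1, 25.9, 22.4 and 22.4 CPM in wild-type “good” mice, 30.6, 23.01, 23.1 and 21.3 CPM in wild-type “poor” mice, 21.4, 19.3, 13.8 and 16.8 CPM in R6/1 “good” mice, and 12.8, 16.5, 15.4 and 19.1 CPM in R6/1 “poor” mice. Only R6/1 “good” mouse 1, at 21.4 CPM, reached the wild-type range, just over wild-type “poor” mouse 4 at 21.3 CPM. edgeR gave Cdh9 a log2 fold change of -0.54 (SE 0.10, adjusted p = 0.000507), with -0.63 within libraries 1 to 8 and -0.56 within libraries 9 to 16. Antisense transcript Gm49127 shares 6.33% of the exon bases of Cdh9 and had a mean of 5.31 counts per library, and whether the counts used strand was not given. Cdh12 had a log2 fold change of 0.43 (SE 0.17, adjusted p = 0.0575), with means of 5.46 CPM in wild-type and 7.36 CPM in R6/1 mice, and Cdh6 one of 0.16 (SE 0.098, adjusted p = 0.223). Neither passed the test, and the ranges of the genotypes overlapped.

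Cdh5 (VE-cadherin) is the cadherin of endothelial adherens junctions. Its levels were 21.1, 18.5, 19.4 and 22.5 CPM in wild-type “good” mice, 22.1, 20.5, 20.3 and 20.3 CPM in wild-type “poor” mice, 17.1, 18.1, 17.8 and 18.3 CPM in R6/1 “good” mice, and 16.1, 19.9, 13.1 and 15.5 CPM in R6/1 “poor” mice. All R6/1 mice but R6/1 “poor” mouse 2 were below the wild-type range. For Cdh5 the log2 fold change was -0.28 (SE 0.073, adjusted p = 0.00619), with -0.27 within libraries 1 to 8 and -0.41 within libraries 9 to 16. Of the 7 endothelial marker genes 6 were called lower in the same comparison, with a median log2 fold change of -0.33, and the part of that list in the value of Cdh5 was not tested. Cdh7 stood at 36.5, 42.95, 38.8 and 30.1 CPM in wild-type “good” mice, 39.4, 41.8, 41.2 and 34.7 CPM in wild-type “poor” mice, 31.1, 32.5, 29.8 and 36.8 CPM in R6/1 “good” mice, and 35.6, 29.2, 34.1 and 29.7 CPM in R6/1 “poor” mice. The genotypes overlapped, since wild-type “good” mouse 4 was as low as R6/1 mice. Only R6/1 “good” mouse 3 and R6/1 “poor” mice 2 and 4 were below the wild-type range. Its log2 fold change was -0.24 (SE 0.072, adjusted p = 0.0145), with -0.16 within libraries 1 to 8 and -0.27 within libraries 9 to 16. Cdh22, a cadherin first known from pituitary and brain, stood at 19.1, 22.5, 28.8 and 25.6 CPM in wild-type “good” mice, 24.2, 32.6, 19.6 and 26.1 CPM in wild-type “poor” mice, 19.7, 19.8, 14.2 and 16.5 CPM in R6/1 “good” mice, and 17.7, 21.5, 21.97 and 25.7 CPM in R6/1 “poor” mice. The R6/1 “good” mice lay at or below the lower end of the wild-type range, and R6/1 “poor” mouse 4 lay in its middle. edgeR gave Cdh22 a log2 fold change of -0.34 (SE 0.12, adjusted p = 0.0384), with -0.33 within libraries 1 to 8 and -0.25 within libraries 9 to 16. The call for Cdh22 held in 6 of the 16 fits that left out 1 mouse, those without wild-type “good” mice 1 or 2, wild-type “poor” mouse 3 or R6/1 “poor” mice 2, 3 or 4, and in the other fits the adjusted p was up to 0.080. Cdh8, Cdh11, Cdh19, Cdh20 and Cdh24 were not called in this comparison. Their log2 fold changes were 0.0039 (SE 0.085, adjusted p = 0.978) for Cdh8, -0.12 (SE 0.068, adjusted p = 0.173) for Cdh11, -0.047 (SE 0.084, adjusted p = 0.703) for Cdh20, 0.44 (SE 0.22, adjusted p = 0.129) for Cdh19 and -0.37 (SE 0.25, adjusted p = 0.267) for Cdh24.

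Cdh13 (T-cadherin) has no transmembrane or cytoplasmic part, is held by a lipid anchor and binds adiponectin. It had the smallest adjusted p of all members. Its levels were 145, 129.6, 121 and 122 CPM in wild-type “good” mice, 142, 119, 138 and 127 CPM in wild-type “poor” mice, 83.2, 93.6, 85.1 and 93.2 CPM in R6/1 “good” mice, and 88.9, 75.2, 86.4 and 93.7 CPM in R6/1 “poor” mice. The 8 R6/1 mice lay well below the 8 wild-type mice, and the R6/1 groups overlapped each other. For Cdh13 the log2 fold change was -0.58 (SE 0.056, adjusted p = 7.17e-07), with -0.67 within libraries 1 to 8 and -0.50 within libraries 9 to 16. Cdh23 and Pcdh15 form the tip link of sensory hair cells and are also transcribed in brain. Pcdh15 stood at 17.1, 15.6, 25.3 and 18.8 CPM in wild-type “good” mice, 20.4, 24.8, 23.8 and 29.5 CPM in wild-type “poor” mice, 27.6, 25.02, 28.9 and 20.4 CPM in R6/1 “good” mice, and 33.9, 34.4, 35.9 and 25.2 CPM in R6/1 “poor” mice. R6/1 “poor” mice 1, 2 and 3 were the highest of all, and the R6/1 “good” mice overlapped with the wild-type mice. edgeR gave Pcdh15 a log2 fold change of 0.40 (SE 0.13, adjusted p = 0.0283), with 0.53 within libraries 1 to 8 and 0.41 within libraries 9 to 16. Its call was lost on leaving out any 1 of “good” mice 1, 2 and 4 or “poor” mouse 1 of the wild type, or R6/1 “poor” mice 1, 2 and 3, with an adjusted p of up to 0.0639. Cdh23, the member with the fewest counts tested, had a log2 fold change of 0.038 (SE 0.25, adjusted p = 0.922).

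**Figure D4:**
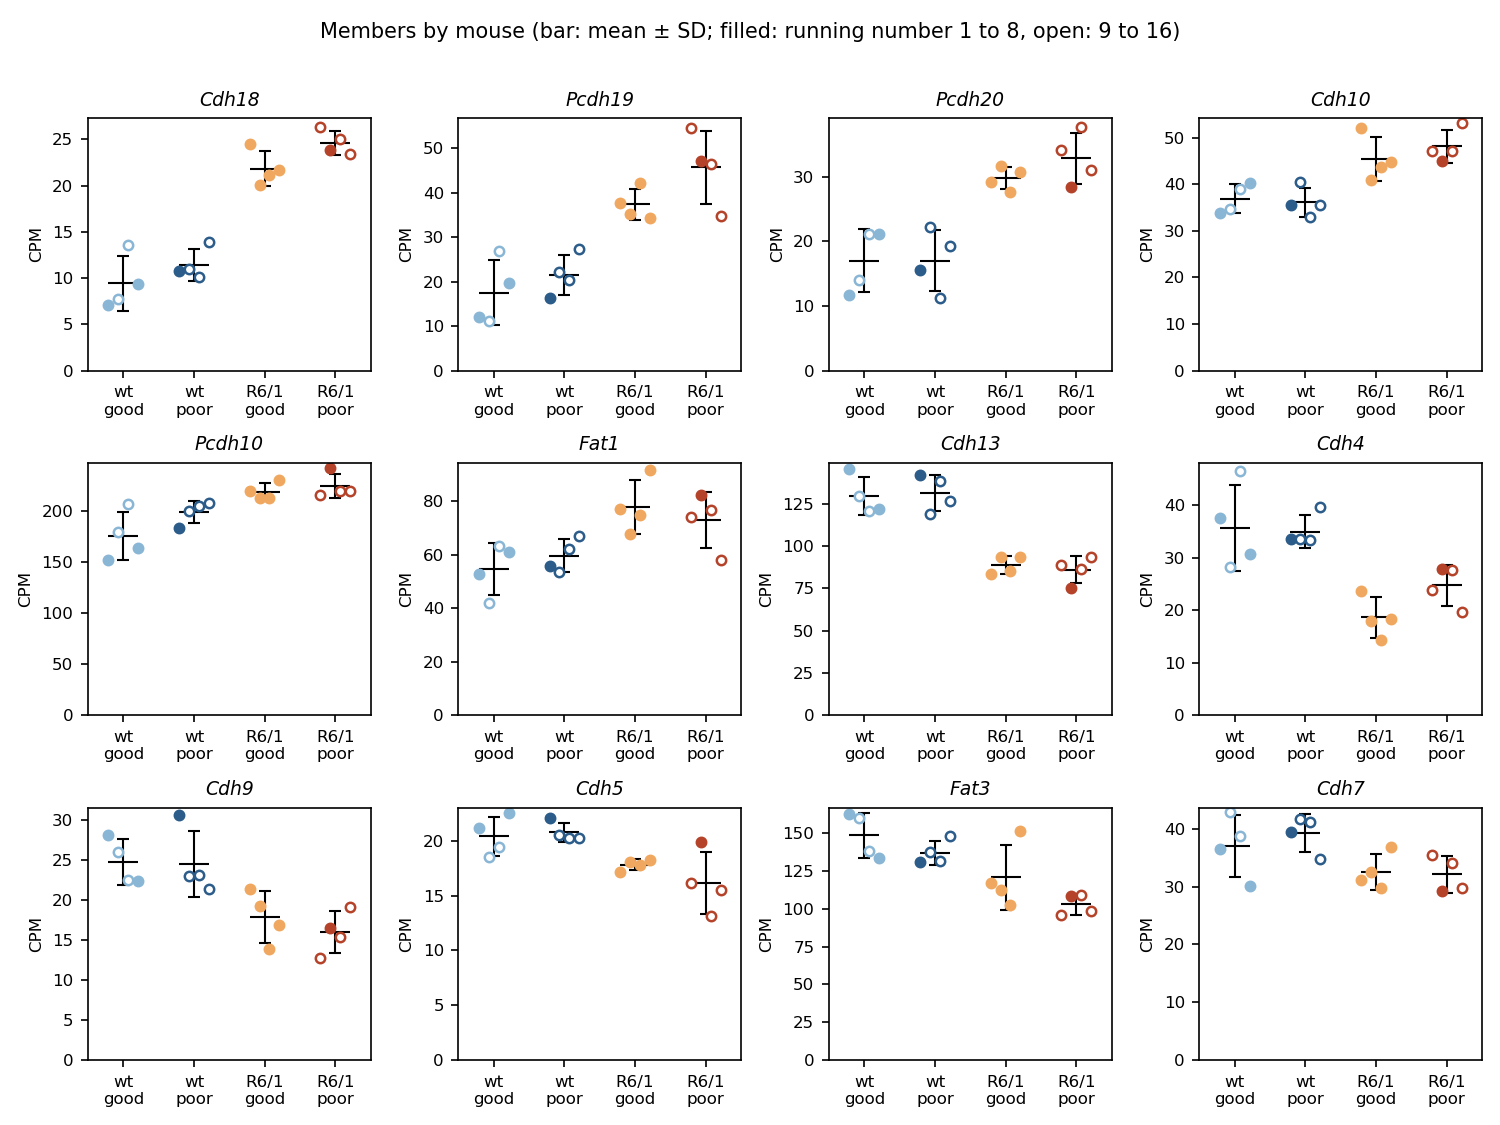
CPM of 12 called members in each of the 16 mice, with the mean and SD of each group as a bar. Filled points are libraries with a running number of 1 to 8 and open points those of 9 to 16. Cdh18, Pcdh19, Pcdh20, Cdh10 and Pcdh10 were higher in every R6/1 mouse, and Cdh13 and Cdh4 lower in every one.

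Of the delta-2 group with Pcdh20, 3 of 6 members were called higher and none lower. Pcdh19, the X-linked gene of a female-limited epilepsy whose protein pairs with N-cadherin, rose most, followed by Pcdh20. The promoter windows of both (RefSeq, GRCm38.p6) are shown with the same motifs in capitals. Both held a CCAAT box, and that of Pcdh19 also a GC box.
Pcdh19, chrX:133688944-133689243, minus strand: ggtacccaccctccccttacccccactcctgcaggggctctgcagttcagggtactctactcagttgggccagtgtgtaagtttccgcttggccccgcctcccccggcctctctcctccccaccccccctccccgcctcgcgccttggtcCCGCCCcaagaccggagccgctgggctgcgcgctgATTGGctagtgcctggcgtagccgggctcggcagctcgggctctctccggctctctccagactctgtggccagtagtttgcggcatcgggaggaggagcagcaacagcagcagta
Pcdh20, chr14:88471347-88471646, minus strand: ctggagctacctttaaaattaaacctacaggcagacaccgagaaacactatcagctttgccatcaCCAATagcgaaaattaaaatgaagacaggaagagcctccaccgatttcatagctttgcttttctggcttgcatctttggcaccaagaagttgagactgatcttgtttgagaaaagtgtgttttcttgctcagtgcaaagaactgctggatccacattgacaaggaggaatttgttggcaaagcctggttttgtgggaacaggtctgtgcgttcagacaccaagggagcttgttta
Pcdh19 stood at 12.1, 11.2, 26.9 and 19.6 CPM in wild-type “good” mice, 16.4, 22.1, 20.4 and 27.3 CPM in wild-type “poor” mice, 37.8, 35.2, 42.2 and 34.3 CPM in R6/1 “good” mice, and 54.5, 47.1, 46.5 and 34.7 CPM in R6/1 “poor” mice. Every R6/1 mouse was above the wild-type range, and R6/1 “poor” mouse 4 was at the level of the R6/1 “good” mice. For Pcdh19 the log2 fold change was 1.09 (SE 0.17, adjusted p = 0.000136), with 1.29 within libraries 1 to 8 and 1.07 within libraries 9 to 16. Pcdh20 stood at 11.7, 14.01, 21.1 and 21.1 CPM in wild-type “good” mice, 15.5, 22.1, 11.1 and 19.2 CPM in wild-type “poor” mice, 29.2, 31.6, 27.6 and 30.7 CPM in R6/1 “good” mice, and 34.1, 28.4, 37.7 and 31.1 CPM in R6/1 “poor” mice. The R6/1 groups overlapped each other and did not reach the wild-type mice. edgeR gave Pcdh20 a log2 fold change of 0.88 (SE 0.13, adjusted p = 7.58e-05), with 0.86 within libraries 1 to 8 and 0.97 within libraries 9 to 16. Pcdh10 (OL-protocadherin), known for guiding axons through the developing striatum, rose by less. Its levels were 152, 179, 207 and 164 CPM in wild-type “good” mice, 183, 200.1, 204 and 207 CPM in wild-type “poor” mice, 219, 212, 213 and 229.7 CPM in R6/1 “good” mice, and 215, 242, 219 and 219.6 CPM in R6/1 “poor” mice. The lowest R6/1 mouse was above the highest wild-type mouse. For Pcdh10 the log2 fold change was 0.24 (SE 0.062, adjusted p = 0.0057), with 0.41 within libraries 1 to 8 and 0.13 within libraries 9 to 16. Pcdh8, Pcdh17 and Pcdh18 were not called, with log2 fold changes of 0.32 (SE 0.30, adjusted p = 0.439) for Pcdh8, 0.15 (SE 0.088, adjusted p = 0.216) for Pcdh17 and 0.17 (SE 0.18, adjusted p = 0.491) for Pcdh18.

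Of the delta-1 group, Pcdh1 fell and the others did not pass the test. Pcdh1 had the highest mean level per length of all members in wild-type mice, with a range over mice that overlapped that of Pcdh9. It stood at 135, 137, 132 and 161 CPM in wild-type “good” mice, 130.5, 156, 125 and 145 CPM in wild-type “poor” mice, 135, 131, 108 and 124 CPM in R6/1 “good” mice, and 96.4, 122, 116 and 143 CPM in R6/1 “poor” mice. The genotypes overlapped, with R6/1 “poor” mouse 1 lowest. R6/1 “good” mice 1 and 2 and R6/1 “poor” mouse 4 were within the wild-type range. edgeR gave Pcdh1 a log2 fold change of -0.21 (SE 0.074, adjusted p = 0.0390), with -0.21 within libraries 1 to 8 and -0.23 within libraries 9 to 16. The call for Pcdh1 was lost on leaving out any 1 of wild-type “good” mouse 4, wild-type “poor” mice 2 and 4, R6/1 “good” mouse 3 or R6/1 “poor” mice 1, 2 and 3, with an adjusted p of up to 0.0751. Pcdh7 had a log2 fold change of -0.11 (SE 0.088, adjusted p = 0.374) and Pcdh9 one of 0.13 (SE 0.11, adjusted p = 0.413).

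Fat1 and Dchs1 rose and Fat3 fell. Fat1 stood at 52.96, 41.8, 63.4 and 60.99 CPM in wild-type “good” mice, 55.95, 53.6, 61.97 and 67.04 CPM in wild-type “poor” mice, 76.9, 67.8, 74.7 and 91.8 CPM in R6/1 “good” mice, and 74.1, 82.4, 76.8 and 57.97 CPM in R6/1 “poor” mice. All R6/1 mice but R6/1 “poor” mouse 4 were above the wild-type range. For Fat1 the log2 fold change was 0.40 (SE 0.092, adjusted p = 0.00287), with 0.47 within libraries 1 to 8 and 0.27 within libraries 9 to 16. Dchs1, the ligand of Fat4, stood at 21.2, 15.9, 20.7 and 20.01 CPM in wild-type “good” mice, 22.6, 15.7, 22.8 and 23.2 CPM in wild-type “poor” mice, 25.2, 28.5, 22.8 and 26.6 CPM in R6/1 “good” mice, and 26.6, 35.2, 27.6 and 21.3 CPM in R6/1 “poor” mice. R6/1 “poor” mouse 2 was the highest, and R6/1 “good” mouse 3 and R6/1 “poor” mouse 4 were inside the wild-type range. edgeR gave Dchs1 a log2 fold change of 0.40 (SE 0.10, adjusted p = 0.00539), with 0.37 within libraries 1 to 8 and 0.36 within libraries 9 to 16. The pseudogene Gm15645 on the other strand shares 5.86% of its exon bases and had a mean of 52.0 counts per library. The receptor Fat4 had a log2 fold change of 0.13 (SE 0.14, adjusted p = 0.492), which did not pass the test. Fat3, which shapes dendrites in the retina, stood at 163, 159.8, 138 and 133 CPM in wild-type “good” mice, 131, 138, 132 and 148 CPM in wild-type “poor” mice, 117, 113, 102 and 152 CPM in R6/1 “good” mice, and 95.8, 108, 109 and 98.4 CPM in R6/1 “poor” mice. R6/1 “good” mouse 4 was among the wild-type mice and the other R6/1 mice were below them. For Fat3 the log2 fold change was -0.35 (SE 0.081, adjusted p = 0.00271), with -0.28 within libraries 1 to 8 and -0.50 within libraries 9 to 16. The Celsr genes were not called, with log2 fold changes of -0.42 (SE 0.18, adjusted p = 0.0732) for Celsr1, -0.18 (SE 0.080, adjusted p = 0.0932) for Celsr2 and 0.099 (SE 0.073, adjusted p = 0.314) for Celsr3, and their genotypes overlapped.

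Each R6/1 group was also compared with the 8 wild-type mice, which the comparisons share, so their values are set side by side and not correlated. In R6/1 “good” mice 6 members were called higher and 6 lower (17.6% each), against 12.1% and 12.4% of all genes tested. In R6/1 “poor” mice 11 members were called higher (32.4%) and 5 lower (14.7%), against 13.5% and 14.9%. Cdh18 had a log2 fold change of 1.06 in “good” and 1.24 in “poor” mice, Pcdh19 0.93 and 1.23, Pcdh20 0.81 and 0.95, Cdh13 -0.55 and -0.60, and Cdh9 -0.46 and -0.63. These 5 were called in both. Cdh4 was called lower in both, at -0.92 in “good” and -0.52 in “poor” mice on the log2 scale. Also called in both, in the same order, were Cdh5 (-0.21 and -0.35), Cdh10 (0.32 and 0.40) and Fat1 (0.44 and 0.35). Dchs1 was called higher in both as well. Fat3 was called in “poor” mice (-0.47 (SE 0.074, adjusted p = 0.0004)) and had -0.24 (SE 0.095, adjusted p = 0.0784) in “good” mice, while Cdh22 was called in “good” mice (-0.50 (SE 0.14, adjusted p = 0.0180)) and had -0.19 (SE 0.14, adjusted p = 0.321) in “poor” mice. Whether such a pair of values differs is the comparison of the R6/1 groups described below.

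The members called in 1 of these comparisons but not over all R6/1 mice were Pcdh7, Cdh19 and Pcdh17. Pcdh7 had a log2 fold change of -0.28 (SE 0.083, adjusted p = 0.0228) in R6/1 “good” mice and of 0.049 (SE 0.093, adjusted p = 0.731) in R6/1 “poor” mice. Transcript 4932441J04Rik on the other strand shares 21.1% of its exon bases, with a mean of 73.2 counts per library. Cdh19, known from cells of the glial lineage of peripheral nerves, had 0.80 (SE 0.19, adjusted p = 0.00688) in “poor” and -0.038 (SE 0.18, adjusted p = 0.907) in “good” mice. Pcdh17, a protocadherin of presynaptic terminals in cortex and basal ganglia, stood at 97.4, 116, 119.6 and 121 CPM in wild-type “good” mice, 103, 108, 129 and 117 CPM in wild-type “poor” mice, 114, 112, 113 and 114 CPM in R6/1 “good” mice, and 166, 114, 154 and 122 CPM in R6/1 “poor” mice. R6/1 “poor” mice 1 and 3 were above all other mice. Its log2 fold change in “poor” mice was 0.29 (SE 0.099, adjusted p = 0.0420) and in “good” mice -0.011 (SE 0.068, adjusted p = 0.930). Among libraries 1 to 8 alone, all 12 members called in R6/1 “good” mice kept their sign and 8 were called. Over all genes tested 1640 were called higher and 1954 lower there. With the running number as a covariate Cdh22, Pcdh7 and Dchs1 were no longer called (edgeR adjusted p = 0.131, 0.354 and 0.180). Calls in R6/1 “good” mice also rested on single mice. That of Cdh22 was lost without R6/1 “good” mouse 3 or 4 (adjusted p up to 0.0623), that of Pcdh7 without R6/1 “good” mouse 1, 2 or 3 (up to 0.0703), that of Dchs1 without R6/1 “good” mouse 1, 2 or 4 (up to 0.109), and that of Cdh5 without wild-type “good” mouse 1 or 4, wild-type “poor” mouse 1 or any R6/1 “good” mouse (up to 0.103). In R6/1 “poor” mice all 16 called members kept their sign in both sets of libraries. Among libraries 9 to 16, 12 of them were called, beside 1423 genes higher and 1978 lower over all tested. Among libraries 1 to 8 only 1 R6/1 “poor” mouse is left, so calls there are not given. Leaving out R6/1 “poor” mouse 3 alone lowered the count from 16 to 10 members. Over all genes tested the calls fell as well, from 2619 higher and 2892 lower to 1593 and 2069. Without that mouse the calls of Cdh5 (adjusted p = 0.0618) and Pcdh15 (0.0548) were lost, and those of Dchs1, Pcdh10, Fat1 and Pcdh17. The call of Dchs1 was also lost without R6/1 “poor” mouse 2 (up to 0.090), that of Pcdh10 without R6/1 “poor” mouse 1 or 2 or wild-type “poor” mouse 1 (up to 0.0948), and that of Fat1 without those 3 mice, wild-type “good” mouse 1 or wild-type “poor” mouse 2 (up to 0.109). Pcdh17 was not called without R6/1 “poor” mouse 1, wild-type “good” mouse 1 or 2, or wild-type “poor” mouse 1, 2 or 4 (up to 0.197). Without R6/1 “poor” mice 1 and 3, the mice with the highest hypothalamic and septal marker sums, 6 members were called, Cdh18, Cdh10, Pcdh19, Pcdh20, Cdh13 and Fat3, with 2 “poor” mice left in the fit. Over all genes tested 640 were called higher and 1160 lower in that fit. Beside the rises, 3 of the 7 septal markers and 2 of 6 tested hypothalamic markers were called higher in R6/1 “poor” mice, and the part of such tissue in the values of the members was not tested.

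The second question was whether the members differed by performance within the R6/1 genotype. No member was called by edgeR, and no gene of the 19363 tested was (0% called in either direction). At an unadjusted p under 0.05, 13 of the 34 members were higher in “poor” mice (38.2%) and 0 lower, against 8.32% of all genes higher and 7.17% lower. DESeq2, the tool named in the study, called 5 of the 33 members it gave an adjusted p higher (15.2%) and 0 lower, against 1.57% and 0.891% of all genes. These 5 were Cdh24, Pcdh8, Pcdh7, Cdh2 and Cdh19. The median log2 fold change of the members was 0.12, with 24 positive and 10 negative, beside -0.00079 over all genes. The count of members higher at the unadjusted p fell to 4 with the running number as a covariate, where 2 were lower. That fit can tell performance from the running number only through R6/1 “poor” mouse 2. The count fell to 5 without R6/1 “poor” mice 1 and 3, where 0 were lower. The count was 7 without R6/1 “poor” mouse 3, and 8 without R6/1 “good” mouse 2 or R6/1 “good” mouse 4. The shares of all genes in these fits were not counted. Within libraries 1 to 8, where 1 R6/1 “poor” mouse is left, the median log2 fold change of the members was 0.13.

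The largest difference was that of Pcdh8 (arcadlin), a protocadherin induced by synaptic activity that draws N-cadherin off the membrane. Pcdh8 stood at 7.83, 6.68, 19.02 and 9.196 CPM in wild-type “good” mice, 7.31, 13.1, 9.14 and 16.98 CPM in wild-type “poor” mice, 10.7, 8.73, 7.94 and 7.74 CPM in R6/1 “good” mice, and 21.7, 20.6, 23.2 and 10.3 CPM in R6/1 “poor” mice. R6/1 “poor” mice 1, 2 and 3 were above all other mice, and R6/1 “poor” mouse 4 lay within the range of the R6/1 “good” mice. edgeR gave Pcdh8 a log2 fold change of 1.12 (SE 0.24, edgeR unadjusted p = 0.00109, adjusted p = 0.248), and edgeR called it on leaving out R6/1 “poor” mouse 4. Its exons share 9.61% of their bases with the antisense transcript Gm9748, which had a mean of 2.75 counts per library. Cdh24, with few counts, had the smallest p. It stood at 3.08, 2.996, 8.69 and 11.02 CPM in wild-type “good” mice, 6.15, 6.77, 5.02 and 7.07 CPM in wild-type “poor” mice, 4.56, 3.63, 3.27 and 3.497 CPM in R6/1 “good” mice, and 6.67, 6.52, 5.88 and 5.16 CPM in R6/1 “poor” mice. The R6/1 groups did not overlap, and both lay inside the range of the wild-type “good” mice. For Cdh24 the log2 fold change was 0.71 (SE 0.15, edgeR unadjusted p = 0.000888, adjusted p = 0.248). Pcdh7 stood at 73.5, 81.2, 89.5 and 70.6 CPM in wild-type “good” mice, 72.3, 89.5, 81.6 and 96.96 CPM in wild-type “poor” mice, 65.3, 65.1, 67.3 and 71.8 CPM in R6/1 “good” mice, and 85.1, 72.7, 84.4 and 96.6 CPM in R6/1 “poor” mice. The R6/1 “poor” mice were all above the R6/1 “good” mice, and the wild-type mice ran from 70.6 to 96.96 CPM. edgeR gave Pcdh7 a log2 fold change of 0.35 (SE 0.085, edgeR unadjusted p = 0.00202, adjusted p = 0.248). With the running number as a covariate, edgeR gave log2 differences of 1.24 for Pcdh8, 0.81 for Cdh24 and 0.12 for Pcdh7 (unadjusted p = 0.0103, 0.00724 and 0.270, adjusted p = 1 for each).

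Cdh2, whose values are given above, was higher in every R6/1 “poor” mouse than in any R6/1 “good” mouse, with a log2 fold change of 0.32 (SE 0.085, edgeR unadjusted p = 0.00368, adjusted p = 0.248). Cdh19 stood at 8.35, 11.1, 15.6 and 10.7 CPM in wild-type “good” mice, 12.7, 13.8, 16.5 and 15.1 CPM in wild-type “poor” mice, 11.5, 11.8, 17.5 and 9.89 CPM in R6/1 “good” mice, and 27.99, 13.7, 25.9 and 22.5 CPM in R6/1 “poor” mice. R6/1 “poor” mice 1, 3 and 4, which carry running numbers of 9 to 16, were above all others, and R6/1 “poor” mouse 2 was not. For Cdh19 the log2 fold change was 0.85 (SE 0.25, edgeR unadjusted p = 0.00735, adjusted p = 0.249). Cdh23 stood at 1.25, 1.11, 1.64 and 1.72 CPM in wild-type “good” mice, 1.31, 1.595, 1.18 and 1.96 CPM in wild-type “poor” mice, 1.32, 0.883, 1.34 and 0.549 CPM in R6/1 “good” mice, and 2.48, 1.54, 2.51 and 1.35 CPM in R6/1 “poor” mice. R6/1 “poor” mice 1 and 3 were the highest of all mice. edgeR gave Cdh23 a log2 fold change of 0.96 (SE 0.33, edgeR unadjusted p = 0.0145, adjusted p = 0.259). With that covariate, edgeR gave log2 differences of 0.21 for Cdh2, 0.12 for Cdh19 and 0.60 for Cdh23 (unadjusted p = 0.144, 0.676 and 0.274, adjusted p = 1 for each). The other 7 members with an unadjusted p under 0.05 were Pcdh9, Pcdh17, Cdh4, Pcdh15, Cdh22, Pcdh19 and Cdh18, with log2 fold changes of 0.19 to 0.42. Beside these values, the 7 septal markers all had a positive log2 fold change with a median of 0.89, the 6 tested hypothalamic markers likewise with a median of 2.52, the 10 cortical markers likewise with a median of 0.64, and the 10 medium spiny neuron markers were all negative with a median of -0.62. None of these marker genes was called by edgeR, and the part of such cells in the differences of the members was not tested.

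**Figure D5:**
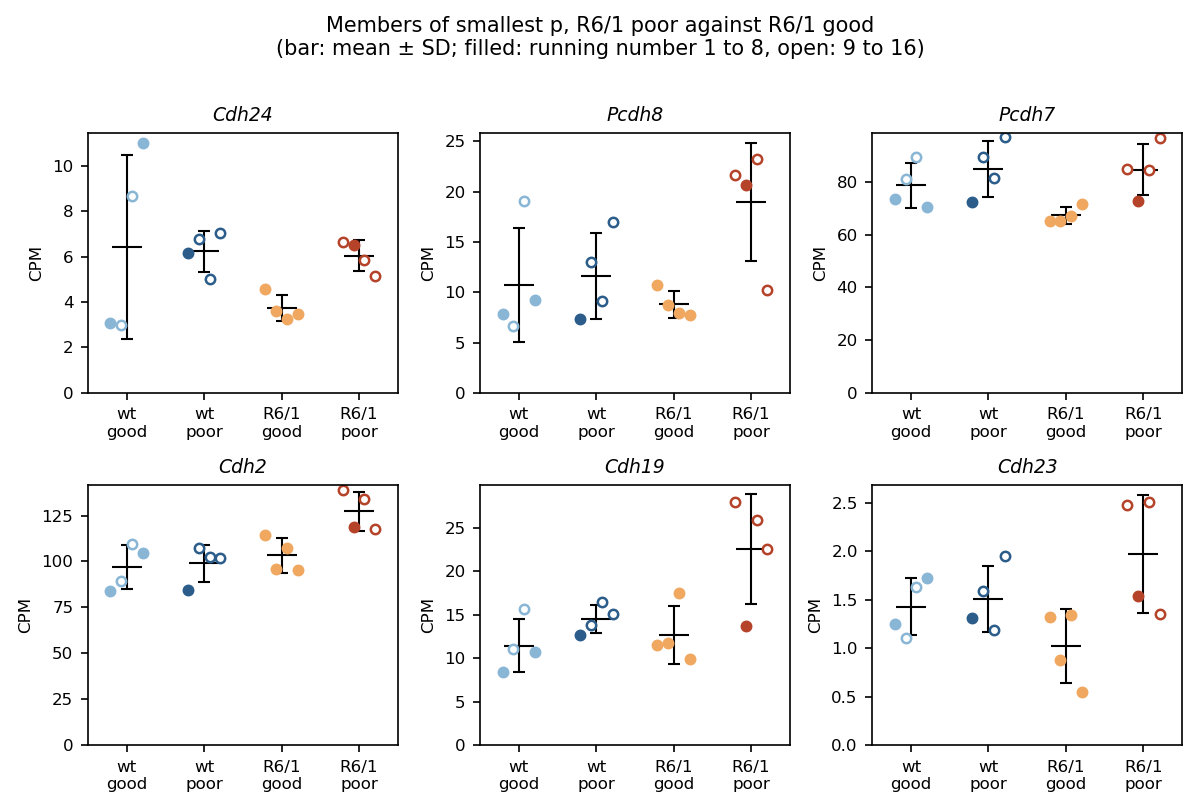
CPM of the 6 members with the smallest unadjusted p for R6/1 “poor” against R6/1 “good” mice, in all 16 mice, with the mean and SD of each group as a bar. Filled points are libraries with a running number of 1 to 8 and open points those of 9 to 16. All R6/1 “good” points are filled and 3 of 4 R6/1 “poor” points are open, and the wild-type “good” mice span the range of both R6/1 groups for Cdh24.

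Wild-type “poor” and wild-type “good” mice were compared as the control of performance without the transgene. No member and no gene was called by edgeR (0%). At an unadjusted p under 0.05, 1 member was higher (2.94%) and 0 lower, against 1.03% and 1.41% of all genes. That member was Pcdh15, with a log2 fold change of 0.36 (SE 0.16, edgeR unadjusted p = 0.0444, adjusted p = 1.000). The count of members higher was 7 without wild-type “good” mouse 3, 3 without wild-type “good” mouse 4, and 0 without any 1 of wild-type “good” mice 1 and 2 or wild-type “poor” mice 2, 3 and 4. For the interaction, which tests whether the difference between “poor” and “good” mice depends on the genotype, no member and no gene was called (0%), and 0 members had an unadjusted p under 0.05, against 5.77% of all genes. That count was 6 without wild-type “good” mouse 2 and 5 without wild-type “good” mouse 1 or R6/1 “poor” mouse 4. It was 4 without wild-type “poor” mouse 4 or R6/1 “poor” mouse 2, and 0 to 3 without any 1 of the other mice. No member was called in any of these fits. The shares of all genes at an unadjusted p in the fits that left out 1 mouse were not counted, here and for the wild-type groups. The smallest p-values were those of Cdh23 (0.87 (SE 0.41, edgeR unadjusted p = 0.0515, adjusted p = 0.826)) and Pcdh8 (0.99 (SE 0.48, edgeR unadjusted p = 0.0577, adjusted p = 0.826)). For no member was the effect of performance class in R6/1 mice shown to depart from that in wild-type mice.

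Members also varied together between single mice. After the group means were removed, the pairs of members with the highest Pearson correlation of log2 CPM over the 16 mice were Pcdh15 with Pcdh8 (r = 0.903, Spearman rho = 0.874), Pcdh8 with Pcdh18 (r = 0.884, rho = 0.856) and Pcdh15 with Pcdh19 (r = 0.878, rho = 0.844). Without the 2 mice farthest from the median these were 0.828, 0.789 and 0.809. Within libraries 1 to 8 they were 0.701, 0.757 and 0.702, and within libraries 9 to 16 they were 0.984, 0.932 and 0.951. The lowest was that of Cdh6 with Cdh9, neighbours on chromosome 15 (r = -0.943, rho = -0.947, and -0.912 without the 2 farthest mice). These were chosen as the extremes of 561 pairs, whose median was 0.115, and are a description without a test. Within a mouse the values of all members come from 1 library, with its depth and dissection. R6/1 “poor” mouse 4 was the lowest of its group for Pcdh8, Pcdh15, Pcdh18 and Pcdh19.

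The partners of cadherins inside the cell and at the junction were counted from lists, over all R6/1 against all wild-type mice. Of 18 catenins and linkers to the cytoskeleton, 4 were higher and 4 lower. Ctnnb1 (beta-catenin) rose by 0.20 (SE 0.043, adjusted p = 0.00133) and Camsap3, which holds microtubules at junctions, by 0.44 (SE 0.084, adjusted p = 0.000503), while the neuronal delta-catenin Ctnnd2 had -0.30 (SE 0.056, adjusted p = 0.000478) and Jup (plakoglobin) -0.33 (SE 0.076, adjusted p = 0.00251). Of 9 genes of the WAVE complex, the actin regulator bound by delta-2 protocadherins, 0 were higher and 6 lower, with a median log2 fold change of -0.29. Brk1 had a log2 fold change of -0.41 (SE 0.058, adjusted p = 3.10e-05), Cyfip2 -0.40 (SE 0.067, adjusted p = 0.000147), Abi2 -0.34 (SE 0.056, adjusted p = 0.000148) and Abi1 -0.29 (SE 0.048, adjusted p = 0.000139). Of the delta-2 protocadherins, Pcdh10 and Pcdh19 were called higher, and Pcdh8, Pcdh17 and Pcdh18 were not called. A relation between them and the WAVE genes was not tested. Of 16 tested other genes of the cadherin superfamily 4 were higher and 1 lower, among them Cdhr2 with 1.62 (SE 0.50, adjusted p = 0.0183), the desmosomal Dsg2 with 0.70 (SE 0.23, adjusted p = 0.0274), Pcdh11x with 0.50 (SE 0.16, adjusted p = 0.0246) and Clstn2 with -0.34 (SE 0.12, adjusted p = 0.0392). Cdh16, Cdh17, Cdhr5, Dsc1 and Dsg3 had too few counts for the test.

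Of 10 proteases that shed cadherins from the membrane or cleave the remaining part, 3 were higher and 1 lower. Adam10, the main shedding enzyme of N-cadherin, had a log2 fold change of 0.15 (SE 0.040, adjusted p = 0.00746), Psen2 of the gamma-secretase 0.34 (SE 0.083, adjusted p = 0.00401), Adam9 0.12 (SE 0.037, adjusted p = 0.0150) and Adam17 -0.23 (SE 0.074, adjusted p = 0.0196). Of 13 planar cell polarity partners of the Celsr and Fat proteins 0 were higher and 2 lower, Ptk7 with -0.36 (SE 0.10, adjusted p = 0.0119) and Fjx1, the mouse relative of the fly kinase Four-jointed that modifies Fat and Dachsous, with -0.66 (SE 0.13, adjusted p = 0.000709). Of 8 nectins and nectin-like genes, 1 was higher, Nectin2 with 0.38 (SE 0.14, adjusted p = 0.0413), and 1 lower, Cadm2 with -0.27 (SE 0.079, adjusted p = 0.0118). These counts stand beside 17.2% of all genes called higher and 17.0% called lower, and no list was tested as a set.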

How the data were processed

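Striatal RNA-seq counts of 16 male mice, 4 per group and 1 library per mouse, were taken in the form deposited. They are raw counts of reads per gene, whole numbers that the authors had not normalized. The authors used a stranded kit and paired-end sequencing, and aligned the reads to GRCm38 by TopHat 1.0.1. The submitters' processing notes also name CASAVA and Bowtie. The counter, its strand setting and the annotation were not given in the sources used here, and reads of overlapping genes on opposite strands cannot be told apart. All 55450 gene IDs occur in GENCODE M21, which gave symbols, coordinates and exon lengths. The 37 mitochondrially encoded genes are listed at 0 in all 16 libraries.

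The 19363 genes that reached 10 counts in 4 libraries or more were tested in R 4.3.3 by the robust quasi-likelihood test of edgeR 4.0.16 with TMM factors and Benjamini-Hochberg adjustment over all of them, threshold 0.05. Each comparison was fitted on its own mice, without covariates. CPM used TMM factors computed over all 16 libraries, while each fit computed them over its own mice. Standard errors come from the same fits. The script was tested on simulated counts. The alternatives were DESeq2 1.42.0, the tool of the study, RLE factors, no filter, a minimum of 50 counts, the replicate number as a block, the running number as a covariate or as 2 separate sets of libraries, a joint fit of all 4 groups, only the wild-type mice in the same class, CPM from library totals and leaving out each mouse. Chosen after seeing the data were the counts at an unadjusted p and the fits without R6/1 “poor” mice 1 and 3. Figures were drawn with matplotlib 3.10.9.

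Values in every mouse are given for members called in any comparison with wild-type mice and for the 6 members with the smallest p between the R6/1 groups, and of each partner list for up to 4 called genes with the smallest p. The members and all lists were chosen with earlier results of these data known. No comparison of replicates within a group gave counts alike enough for 1 library under 2 names. That check cannot tell whether 2 libraries came from 1 animal. The sample descriptions of wild-type “good” mice 1 and 2 carry the same number, with the letter b added for mouse 2. What the letter stands for was not given in the sources used here.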

Additional observations from a re-analysis of the deposited data

Results flagged for a closer look

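Among the 136 groups of 4 mice given by the 34 tested members, 7 held a mouse far from the other 3 by Dixon's test at the 95% level, about as many as the 1 in 20 that chance gives. Of these, 3 belonged to R6/1 “poor” mouse 4, which was low for Pcdh8 (10.3 CPM, others 20.6 to 23.2), Pcdh15 (25.2 CPM, others 33.9 to 35.9) and Pcdh18 (5.85 CPM, others 10.9 to 12.1). The others were high values of Cdh4 in wild-type “poor” mouse 4 (39.6 CPM, others 33.4 to 33.5), Cdh5 in wild-type “poor” mouse 1 (22.1 CPM, others 20.3 to 20.5) and Pcdh10 in R6/1 “poor” mouse 2 (242 CPM, others 215 to 219.6), and a low value of Dchs1 in wild-type “poor” mouse 2 (15.7 CPM, others 22.6 to 23.2).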

How the results depend on the processing

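The count of 17 members called over all R6/1 against all wild-type mice stayed within 1.5 times under every alternative run (13 to 18 on leaving out 1 mouse), as did the 12 called in R6/1 “good” mice (9 to 14). For R6/1 “poor” against wild-type mice 16 members were called, beside 2619 genes higher and 2892 lower over all tested. Without R6/1 “poor” mice 1 and 3, which leaves 2 “poor” mice, 6 were called, beside 640 genes higher and 1160 lower. Leaving out 1 mouse gave 10 to 19 members, the 10 beside 1593 genes higher and 2069 lower. Within libraries 1 to 8, where 1 “poor” mouse is left, the median log2 fold change of the members was 0.086, against 0.18 with all mice. Between the R6/1 groups, where edgeR called 0 members, DESeq2 called 5, and leaving out 1 mouse gave 0 to 1, the 1 being Pcdh8 without R6/1 “poor” mouse 4. The 13 members higher there at an unadjusted p under 0.05, with 0 lower, became 4 with the running number as a covariate, with 2 lower. In that fit performance and running number are told apart only through R6/1 “poor” mouse 2. The 13 members became 8 in 1 fit of all 4 groups, with 1 lower, and 5 without R6/1 “poor” mice 1 and 3, with 0 lower. Leaving out 1 mouse gave 7 to 13, with 0 to 1 lower. The cause was not tested. No log2 fold change of a called member changed sign under any alternative. At an unadjusted p under 0.05 the 1 member higher in wild-type “poor” mice became 4 without a filter, 5 with the replicate block, 2 in 1 fit of all 4 groups and 0 with the running number as a covariate or within libraries 1 to 8, and 0 to 7 on leaving out 1 mouse. The 0 members of the interaction became 2 by DESeq2, 1 with RLE factors, 3 without a filter and 0 to 6 on leaving out 1 mouse. The shares of all genes at an unadjusted p under these alternatives were not counted. Called members numbered 0 in wild-type “poor” against “good” mice and in the interaction under every alternative. No R6/1 “good” mouse had a running number of 9 to 16. So 3 comparisons could not be fitted within those libraries: R6/1 “good” against wild-type mice, R6/1 “poor” against R6/1 “good” mice, and the interaction. The values given there for all R6/1 mice are those of R6/1 “poor” mice alone.

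Replicate numbers did not pair the mice: over 24 same-numbered pairs of groups the correlation of deviations from the group means ran from -0.35 to 0.23, and 3 of 16 mice were closest to their own number. With a replicate block 17, 13 and 17 members were called in all R6/1, R6/1 “good” and R6/1 “poor” mice against wild-type mice, and 0 in the other 3 comparisons. Depth limits Cdh23, Cdh12, Cdh24 and Celsr1 most, and 3 members were too low to test.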
